A study of Citrus sinensis with 24 samples.

Results

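Bingtang, a sweet orange (Citrus sinensis) variety with low fruit acidity, was compared with the normal acid varieties Newhall and Xinhui for the change in gene expression between 45 and 142 days post anthesis (DPA). All genes with enough reads were examined in the 18 libraries of these 3 varieties, out of 24 libraries in the series, and 20231 of the 24166 genes in the table could be tested. The quantity of interest is an interaction: the stage change of Bingtang (142 minus 45 DPA, on the log2 scale) minus the mean stage change of Newhall and Xinhui. Genes called in this interaction were then separated by whether Bingtang stood apart at 142 DPA or at 45 DPA.

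The 6 groups, each of 3 biological replicates, were Bingtang, Newhall and Xinhui at 142 DPA and the same varieties at 45 DPA. The trees were grown in the field without a treatment named in the labels, and RNA came from fruit tissue. The labels call Newhall and Xinhui acidic and Bingtang low acid, and each level of acidity below theirs is represented by a single variety, so acidity and variety cannot be told apart. The 6 libraries of the acidless variety Succari were left out of the fit and served only as a readout that the comparison did not use. Read totals were 3.8e+06 to 5.9e+06 per library.

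Orange fruits do not ripen in a climacteric burst. Cell division dominates the early stage, and later the juice sac cells expand, fill their large vacuoles with sugars and citric acid, and remodel their walls. How acid a fruit tastes depends on how much organic acid the vacuoles hold and on how much sugar stands beside it, and these varieties were sampled because they have similar acid levels early and different ones late.

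Expression is given as CPM, read counts scaled to a common library total after TMM, a correction for differences in composition between libraries. A gene was called when its adjusted p (edgeR's quasi-likelihood test, Benjamini-Hochberg over all genes tested) was under 0.05 and its change was at least 2-fold. Replicates lay closer together at 45 DPA than at 142 DPA: the chi-square per gene between pairs of replicates was 1.80 to 3.00 at 45 DPA and 6.08 to 26.5 at 142 DPA. The highest values involved Bingtang 142 DPA replicate 2 and Xinhui 142 DPA replicate 3, in which 10 genes took 9.63% and 11.03% of the reads, against 4.63% to 7.85% in the other 16 libraries. These 2 libraries were also highest for the summed level of 7 seed genes, at 16.8 CPM in the Bingtang library and 36.6 CPM in the Xinhui library, against at most 10.004 CPM in the others. In the Bingtang library 11.9 of the 16.8 CPM came from 1 gene, Cs5g17210. With Cs5g24670 included, the sum over all 8 seed genes was 28.5 CPM in that Bingtang library and 77.2 CPM in the Xinhui library, within a range of 20.6 to 77.2 CPM over the 18 libraries. The part of seed tissue in the results was not tested. The labels name the tissue only as fruit and do not say which part was sampled or whether seeds were removed. RNA came from tissue in bulk, so fewer cells of a type and less RNA per cell cannot be told apart.

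The stage change of Bingtang differed from that of the normal acid varieties in 1177 genes, or 5.82% of those tested. Of these, 569 had a higher stage change in Bingtang (2.81%) and 608 a lower one (3.01%). At an adjusted p under 0.05 without the limit of 2-fold, edgeR's quasi-likelihood test passed 3169 genes. Across the 20231 genes, which are not independent replicates, the stage change of Bingtang and the mean of Newhall and Xinhui had a Pearson r of 0.887. Bingtang itself had 18.3% of genes higher and 21% lower at 142 DPA, and the normal acid mean had 17.6% higher and 20.7% lower.

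**Figure D1:**
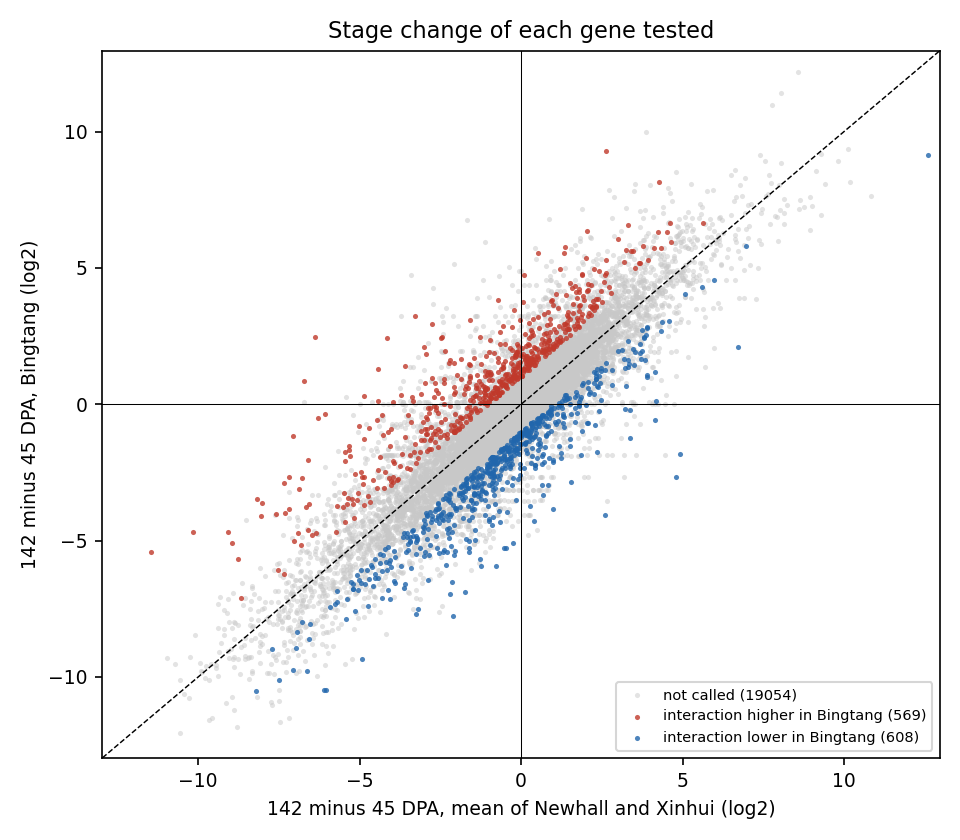
Stage change (142 minus 45 DPA, log2) of each of the 20231 genes tested, with Bingtang on the vertical axis and the mean of Newhall and Xinhui on the horizontal axis. The dashed line marks equal change, and the 569 genes called higher (red) and 608 called lower (blue) in the interaction lie along both sides of the cloud of genes not called (grey).

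The mean of Newhall and Xinhui covers a difference between these varieties. Taken singly, the stage change of Bingtang differed from that of Newhall in 839 genes (4.15%) and from that of Xinhui in 1913 genes (9.46%), and Newhall differed from Xinhui in 1282 genes (6.34%). These contrasts have the same number of libraries on each side but share libraries with each other. By this count Bingtang and Newhall were the nearest pair, and the correlations across genes had the same order at the near and far ends, with r of 0.868 for Bingtang and Newhall, 0.841 for Bingtang and Xinhui and 0.856 for Newhall and Xinhui. Of the 1177 genes, 419 were also called in the same direction against Newhall and against Xinhui separately (2.07% of all genes tested), 181 of them higher and 238 lower. Another 557 were called against Xinhui but not Newhall, 166 against Newhall but not Xinhui, and 35 against neither alone. Newhall and Xinhui themselves differed in 335 of the 1177, or 28.5%.

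**Figure D2:**
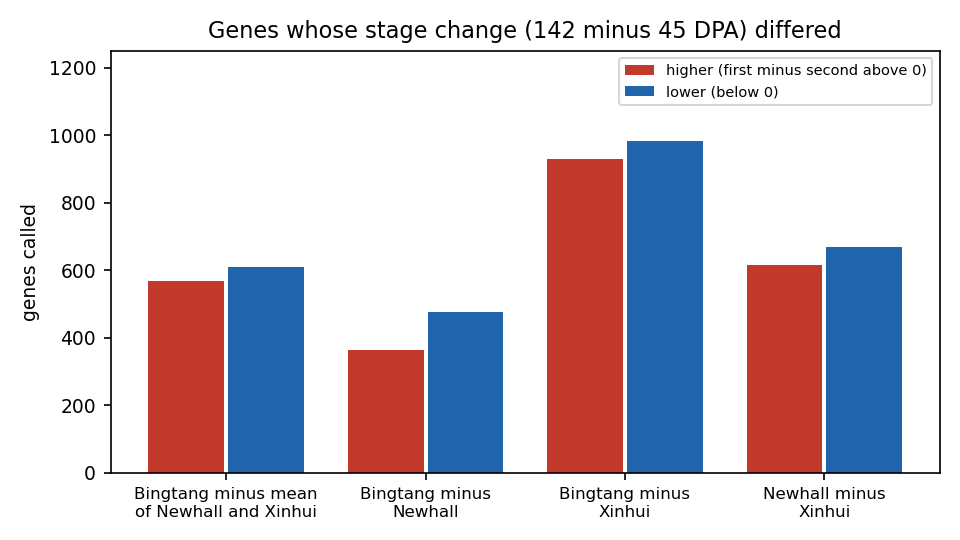
Number of genes whose stage change (142 minus 45 DPA) differed between Bingtang and the mean of Newhall and Xinhui, and between each pair of varieties, with higher calls in red and lower calls in blue (edgeR's quasi-likelihood test). The bars for Bingtang minus Xinhui (929 higher, 984 lower) are the tallest and those for Bingtang minus Newhall (363 higher, 476 lower) the shortest.

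The direction of change shows what the interaction was made of. Both sides fell together in 348 of the 1177 genes and rose together in 150, so that they differed in extent; over all 20231 genes tested, 3374 fell and 2663 rose on both sides. Bingtang alone passed the test in another 158 genes that rose and 195 that fell, and the normal acid mean alone in 70 that rose and 124 that fell. Over all genes tested, these counts were 1013 and 862 for Bingtang alone, and 887 and 798 for the normal acid mean alone. In 107 genes neither change passed by itself, as in 10609 of all genes tested. Opposite calls were few: 19 genes rose in Bingtang and fell in the normal acid mean, and 6 fell in Bingtang and rose in the normal acid mean. These were also all the opposite calls among the 20231 genes tested. That follows nearly by construction, since opposite changes of at least 2-fold in the same fit make a large interaction.

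The stage at which Bingtang stood apart was mainly the later one. At 142 DPA Bingtang differed from the mean of Newhall and Xinhui in 1592 of the genes tested (7.87%), 832 higher and 760 lower, and at 45 DPA in 260 (1.29%), 135 higher and 125 lower. Of the 1177 genes of the interaction, 757 (64.3%) were called at 142 DPA and not at 45 DPA, and 51 (4.33%) at 45 DPA and not at 142 DPA. A further 21 were called at both stages in opposite directions, 7 at both stages in the same direction, and 341 at neither. The single fit shares its estimate of the spread between stages although the replicates were closer at 45 DPA. With each stage fitted on its own 9 libraries, an alternative chosen after seeing the data, 1217 genes were called at 142 DPA and 433 at 45 DPA, and the interaction genes set apart numbered 657 at 142 DPA and 79 at 45 DPA.

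**Figure D3:**
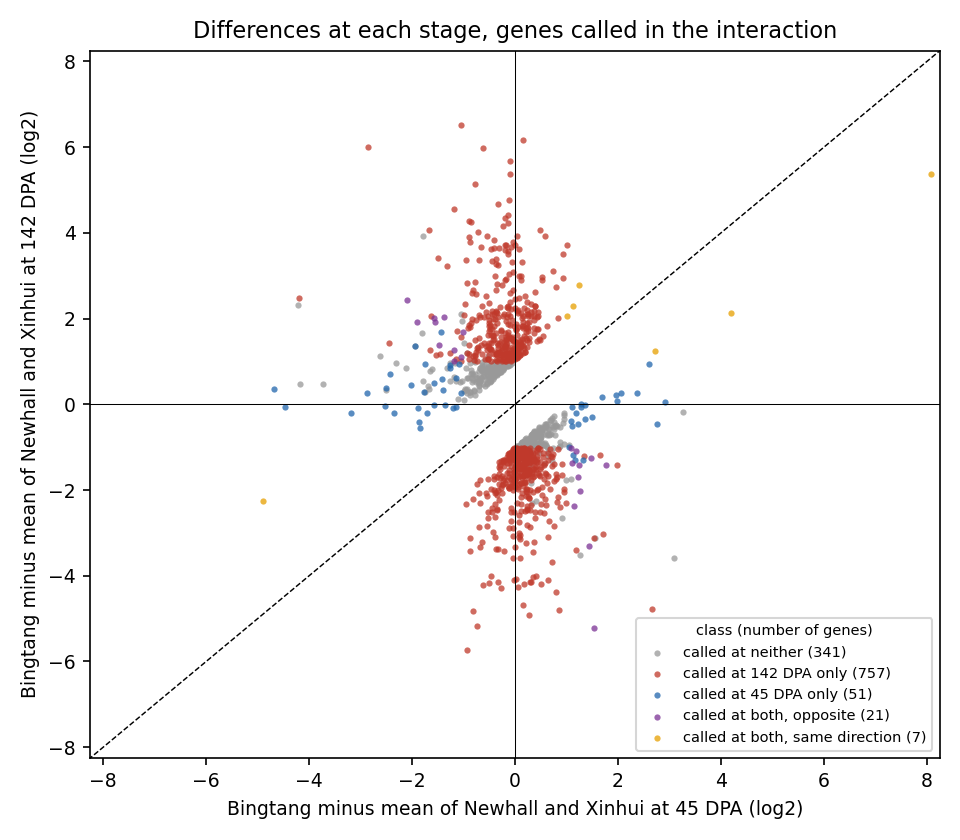
Difference between Bingtang and the mean of Newhall and Xinhui (log2) at 142 DPA, on the vertical axis, and at 45 DPA, on the horizontal axis, for the 1177 genes called in the interaction. The 757 genes called at 142 DPA only (red) stretch along the vertical axis, the 51 called at 45 DPA only (blue) along the horizontal axis, and equal differences would fall on the dashed line.

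Of the 757 genes set apart at 142 DPA, 357 were higher in Bingtang and 400 lower. The 3 Bingtang libraries lay all above or all below the 6 others at that stage in 534 of the 757, where 14.7% of all genes tested did so. This excess follows from the selection, since the class was chosen on these same libraries. Both varieties were passed separately in 312 of the 757. The 357 higher genes had a median difference of 1.67 at 142 DPA and -0.16 at 45 DPA, and the 400 lower genes -1.60 and 0.14 (log2), which the class itself selects. Of the 357, 166 rose in Bingtang and 77 fell, while in the normal acid mean 48 rose and 178 fell. Of the 400, 22 rose in Bingtang and 312 fell, while in the normal acid mean 72 rose and 173 fell. Of the 357, 102 rose in Bingtang with no call in the normal acid mean, and 85 fell in the normal acid mean with no call in Bingtang. Of the 400, 173 fell on both sides and 136 fell in Bingtang with no call in the normal acid mean. These directions follow in part from the selection. Over all genes tested, 18.3% rose and 21% fell in Bingtang, and 17.6% rose and 20.7% fell in the normal acid mean.

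Succari, whose libraries had no part in choosing these genes, gave a stage change of its own, with 17.5% of the genes it could test higher and 16.9% lower at 142 DPA. Of the 357 genes higher in Bingtang at 142 DPA, 15.1% rose and 40.9% fell in Succari, with a median stage change of -0.73, against 0.03 for all genes (log2). The medians of the same genes were 0.96 in Bingtang and -1.06 in the normal acid mean, values that follow from the selection. Of the 400 lower genes, 25% rose and 35.2% fell in Succari, with a median of -0.31, beside -2.53 in Bingtang and -0.80 in the normal acid mean. In the normal acid mean 178 of the 357 and 173 of the 400 fell, so all genes are not a matched background.

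Of the genes set apart at 142 DPA that were called against both varieties, had reads in every group and did not overlap, Cs9g09430 and Cs6g11700 stood furthest above the normal acid varieties, and Cs2g14490 and Cs4g10600 furthest below; the tables used here give these genes no name. For Cs9g09430 the levels were 378, 238 and 299 CPM in Bingtang, against 43.3, 39.5 and 16.8 CPM in Newhall and 5.32, 8.52 and 22.5 CPM in Xinhui. At 45 DPA all 9 libraries lay between 4.04 and 9.55 CPM. Bingtang was far above both other varieties at the later stage with no overlap, and overlapped them at the earlier one. The interaction was 3.35 (SE 0.513, edgeR adjusted p = 0.000155), and the stage change was 5.36 in Bingtang, 2.65 in Newhall and 1.38 in Xinhui. In Succari it was 0.74.

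Cs6g11700 had 7.14, 22.7 and 17.0 CPM in Bingtang at 142 DPA, against 2.37, 2.11 and 1.83 CPM in Newhall and 0.760, 0.758 and 0.385 CPM in Xinhui. The replicates of Bingtang spread widely but stayed above all others, and at 45 DPA the levels were 1.74 to 2.42 CPM in Bingtang, 1.37 to 1.93 CPM in Newhall and 0.192 to 0.957 CPM in Xinhui. Its interaction was 2.71 (SE 0.608, edgeR adjusted p = 0.00416).

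Cs4g10600 was nearly lost in Bingtang fruits at 142 DPA. It had 1.47, 1.08 and 1.13 CPM in Bingtang, against 22.3, 43.9 and 44.6 CPM in Newhall and 20.7, 45.1 and 16.4 CPM in Xinhui. At 45 DPA the level was 42.4 ± 3.02 CPM in Bingtang, 39.4 ± 5.42 CPM in Newhall and 36.8 ± 1.72 CPM in Xinhui (SD, n = 3 each), and Bingtang overlapped Newhall but lay above the highest Xinhui library. The mean of the normal acid libraries was 26.2 times that of Bingtang at 142 DPA. The interaction was -4.83 (SE 0.485, edgeR adjusted p = 1.84e-06), and neither Newhall nor Xinhui had a called stage change of this gene. The change in Succari was -0.93.

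Cs2g14490 had 1.05, 0.432 and 0.566 CPM in Bingtang at 142 DPA, against 3.10, 5.97 and 4.75 CPM in Newhall and 85.0, 73.7 and 98.9 CPM in Xinhui. The 3 varieties formed 3 separate levels at that stage, so the mean of the normal acid varieties describes neither. At 45 DPA the levels were 4.65 to 9.75 CPM in Bingtang, 9.39 to 13.2 CPM in Newhall and 12.8 to 15.2 CPM in Xinhui. The interaction of -4.01 (SE 0.428, edgeR adjusted p = 3.92e-06) holds a difference of -3.84 between Newhall and Xinhui themselves (adjusted p = 4.25e-07). Newhall fell by 1.24 and Xinhui rose by 2.61 between the stages, with Bingtang at -3.33 and Succari at 5.27.

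Genes that can be named come from the 72 genes that the study tied to the sugar/acid ratio. The study chose them on these samples, Bingtang and Succari included, so their direction is not independent evidence. Of the 61 that could be tested, 6 were called in the interaction (9.84%, against 5.82% of all genes tested), 5 higher and 1 lower. Their median interaction was 0.39, against -0.03 for all genes. By category, the 6 were 2 of 17 genes of metabolism, 1 of 9 of transport, 1 of 5 of signaling, 1 of 6 of transcription and 1 of 16 of unknown function. At 142 DPA 6 of the 61 were higher in Bingtang and 2 lower, where 7.87% of all genes tested were called, and at 45 DPA 1 was higher and 1 lower, where 1.29% were called.

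Cs6g16160, of unknown function and one of the genes the study also measured by qPCR, was the listed gene called with a lower stage change. At 142 DPA it had 47.9, 25.02 and 17.4 CPM in Bingtang, against 250.1, 255.1 and 231.1 CPM in Newhall and 96.4, 105 and 153 CPM in Xinhui. The levels at 45 DPA were 137, 150 and 109 CPM in Bingtang, against 147, 139 and 143 CPM in Newhall and 135, 138 and 130 CPM in Xinhui. The 3 varieties were level at the earlier stage, and at the later one every Bingtang library lay below all others. The interaction was -2.43 (SE 0.279, edgeR adjusted p = 8.27e-06). It was called against Newhall (-2.92) and against Xinhui (-1.95), and Succari had a stage change of -3.68.

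Cs5g20010 encodes a homolog of hyoscyamine 6-dioxygenase, an enzyme of tropane alkaloid synthesis in nightshade plants that belongs to the 2-oxoglutarate-dependent dioxygenases. At 142 DPA it had 10.5, 9.71 and 6.98 CPM in Bingtang, against 2.01, 4.39 and 6.58 CPM in Newhall and 2.66, 1.51 and 0.962 CPM in Xinhui. At 45 DPA the levels were 0.597, 0.694 and 0.606 CPM in Bingtang, against 1.09, 1.57 and 2.20 CPM in Newhall and 1.34, 1.18 and 1.35 CPM in Xinhui. Bingtang was above all others at the later stage, though only just above the highest Newhall library, and below all others at the earlier one. The difference at 45 DPA did not pass the test (-1.13, adjusted p = 0.257), and the interaction was 2.85 (SE 0.579, adjusted p = 0.00196), both from edgeR's quasi-likelihood test. Succari had a stage change of 5.14.

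The homolog of ABCB21, an auxin transporter of Arabidopsis (orange1.1t01769), had 9.45, 13.4 and 13.0 CPM in Bingtang at 142 DPA, against 2.19, 4.39 and 8.04 CPM in Newhall and 2.47, 2.08 and 3.08 CPM in Xinhui. The 45 DPA levels were 2.42 to 3.19 CPM in Bingtang, 2.73 to 3.72 CPM in Newhall and 3.44 to 5.19 CPM in Xinhui. Bingtang lay above both other varieties at the later stage and overlapped Newhall at the earlier one. The interaction was 2.25 (SE 0.419, edgeR adjusted p = 0.000944). It was called against Xinhui (2.99) but not against Newhall (1.498, edgeR adjusted p = 0.065).

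Cs6g05010, a probable leucine-rich repeat receptor-like kinase of the type that senses signals at the cell surface, had 4.41, 5.39 and 4.34 CPM in Bingtang at 142 DPA, against 3.47, 2.46 and 2.38 CPM in Newhall and 0.951, 2.46 and 3.27 CPM in Xinhui. At 45 DPA its levels were 2.39 to 3.30 CPM in Bingtang, 1.76 to 3.64 CPM in Newhall and 3.65 to 5.17 CPM in Xinhui, so that Bingtang overlapped Newhall only, while at 142 DPA it lay above all other libraries. Neither stage by itself was called. The difference at 142 DPA (0.917, edgeR adjusted p = 0.0208) fell short of 2-fold only, and that at 45 DPA was -0.329 (edgeR adjusted p = 0.627). The stage change was called against Xinhui (1.799, edgeR adjusted p = 0.00937) but not against Newhall (0.693, edgeR adjusted p = 0.435). The interaction of 1.25 (SE 0.41, edgeR adjusted p = 0.0443) was close to the threshold. The call was lost without any 1 of 9 libraries, at adjusted p of 0.0546 to 0.1: Bingtang 142 DPA replicates 1, 2 and 3, Newhall 142 DPA replicate 3, Bingtang 45 DPA replicates 1 and 3, Newhall 45 DPA replicate 1, and Xinhui 45 DPA replicates 1 and 2.

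UNE10 (orange1.1t00185), a homolog of an Arabidopsis basic helix-loop-helix transcription factor, was barely detected. In Bingtang it had 17 reads at 142 DPA and 2 at 45 DPA, in Newhall 3 and 8, and in Xinhui 0 and 6, each over 3 libraries. The mean of 1.14 CPM in Bingtang at 142 DPA was at least 5.97-fold higher than the floor of 3 reads over the 3 Xinhui libraries, which covers counting error only. At 142 DPA Bingtang overlapped Newhall, with 0.420 CPM in the lowest Bingtang library and 0.526 CPM in the highest Newhall library. The fitted interaction of 5.73 (edgeR adjusted p = 0.0115) rests on so few reads that its size is no bound. The stage change was called against Xinhui (edgeR adjusted p = 0.0201) but not against Newhall (edgeR adjusted p = 0.0758).

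Without the limit of 2-fold, 9 of the 61 listed genes tested passed the adjusted p of the interaction, beside 3169 of all 20231 genes. These shares are near each other, so the count is no result about the list. Of the 9, the 3 that fell short of 2-fold were named after their values were seen. All 3 had a lower stage change in Bingtang (edgeR's quasi-likelihood test). These were the homologs of TTG2 (Cs6g03950), a WRKY transcription factor of epidermal cell fate in Arabidopsis, at -0.58 (adjusted p = 0.00292), of glucose-6-phosphate isomerase (Cs3g24700), an enzyme of glycolysis, at -0.69 (adjusted p = 0.00723), and of KCS6 (Cs7g13310), which elongates fatty acids for cuticular wax, at -0.92 (adjusted p = 0.0145).

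**Figure D4:**
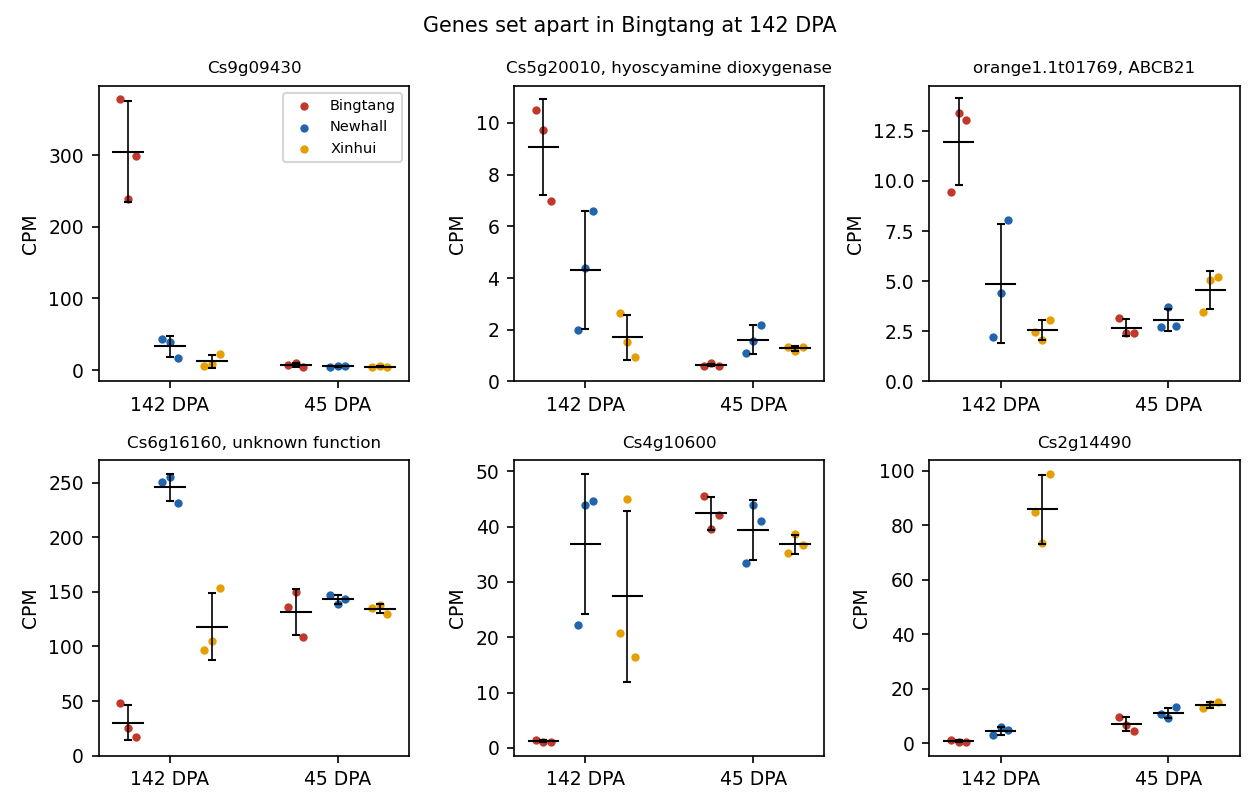
CPM of 6 genes set apart in Bingtang at 142 DPA, with 142 DPA on the left and 45 DPA on the right of each panel. Points are the 3 libraries of each variety, lines the mean and bars the SD, and Cs4g10600 averages 1.23 CPM in Bingtang at 142 DPA beside 32.1 CPM over the 6 normal acid libraries.

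Other listed genes differed at a stage without a called difference in stage change. MAN7 (orange1.1t00612), the homolog of an endo-beta-mannanase that cuts cell wall mannans, had 30.3, 19.0 and 31.0 CPM in Bingtang at 142 DPA, against 3.65, 11.2 and 9.32 CPM in Newhall and 3.802, 2.08 and 1.93 CPM in Xinhui. No Bingtang library overlapped the others, and the difference was 2.54 (SE 0.267, edgeR adjusted p = 1.9e-06). At 45 DPA the gene had 2 reads in Bingtang, 1 in Newhall and 0 in Xinhui, so its interaction could hardly be estimated (0.87, SE 2.54).

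The homolog of the TMV resistance protein N (orange1.1t01829), a type of immune receptor, was higher in Bingtang at both stages. It had 6.72, 7.34 and 10.95 CPM in Bingtang at 142 DPA, against 1.28, 1.58 and 2.74 CPM in Newhall and 5.89, 2.08 and 2.12 CPM in Xinhui. Young fruits had 2.79, 2.26 and 2.22 CPM in Bingtang, against 1.28, 0.391 and 0.275 CPM in Newhall and 0.765, 0.504 and 0.576 CPM in Xinhui. No Bingtang library overlapped the others at either stage. The difference was 1.73 at 142 DPA (adjusted p = 0.000297) and 1.85 at 45 DPA (adjusted p = 0.0244), with an interaction of -0.12 (SE 0.474), from edgeR's quasi-likelihood test.

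BOR4 (Cs1g13320), the homolog of a boron exporter of Arabidopsis, was higher in Bingtang at 142 DPA by 1.099 (SE 0.286, edgeR adjusted p = 0.00729), with 3.57 to 6.90 CPM in Bingtang, against 1.83 to 3.47 CPM in Newhall and 1.52 to 2.08 CPM in Xinhui. Cs8g06880, annotated with lipid metabolism, was lower in Bingtang at 142 DPA (difference -1.49, SE 0.318, edgeR adjusted p = 0.00154), with 1.08 to 2.94 CPM in Bingtang, against 4.02 to 6.21 CPM in Newhall and 3.802 to 6.16 CPM in Xinhui. At 142 DPA Bingtang did not overlap the other varieties for either gene, and neither gene had a called interaction. At 45 DPA Bingtang overlapped Newhall for both genes and lay below Xinhui. The stage change of BOR4 was called against Xinhui (2.59, edgeR adjusted p = 0.0253) but not against Newhall (0.05). At 45 DPA BOR4 had only 4 reads in Bingtang, 2 in Newhall and 10 in Xinhui, each over 3 libraries.

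The remaining genes that the study measured by qPCR were not called in the interaction or at either stage. The cytosolic malate dehydrogenase homolog Cs1g03610, whose enzyme interconverts malate and oxaloacetate, had 1.38 ± 0.821 CPM in Bingtang at 142 DPA, against 1.39 ± 0.574 CPM in Newhall and 1.14 ± 0.680 CPM in Xinhui (SD, n = 3 each). The remorin homolog Cs5g03630 had 2.23 ± 1.12 CPM in Bingtang, against 2.89 ± 0.677 CPM in Newhall and 3.18 ± 0.423 CPM in Xinhui at 142 DPA. The small heat shock protein gene Cs7g32260 rose in the 3 varieties, by 3.56 in Bingtang, 3.57 in Newhall and 4.02 in Xinhui (log2), with an interaction of -0.24 (SE 0.915). These values rest on only 6 reads over 3 libraries in each variety at 45 DPA. The lipid transfer or seed storage gene Cs5g24670 had an interaction of -1.04 (SE 0.485, edgeR adjusted p = 0.163). Without Bingtang 142 DPA replicate 1, at 32.8 CPM beside 11.7 and 14.0 CPM in the other replicates, that interaction was -1.61 and called (adjusted p = 0.0323). The actin gene Cs1g05000, the reference of the qPCR, was added after its values were seen and had an interaction of -0.02 (SE 0.112).

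Of the 8 seed genes, 6 could be tested and 0 were called in the interaction by edgeR's quasi-likelihood test, 1 at an unadjusted p under 0.05, and DESeq2 and both limma fits also called 0. With 5.82% of all genes called, a count of 0 in 6 is near the background and is no result about seed genes.

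The 51 genes set apart at 45 DPA were 22 higher and 29 lower in Bingtang at that stage. The 3 Bingtang libraries lay all above or all below the 6 others in 49 of the 51, against 12.9% of all genes tested, and 21 were called against both varieties separately. As at 142 DPA, the excess without overlap follows from the selection on these same libraries. Of the 22 higher genes, 12 fell in Bingtang and 3 rose, while in the normal acid mean 7 fell and 10 rose. Of the 29 lower genes, 20 rose in Bingtang and 3 fell, while in the normal acid mean 10 rose and 8 fell. Here too the directions follow in part from the selection. The shares over all genes tested were 18.3% rising and 21% falling in Bingtang, and 17.6% and 20.7% in the normal acid mean. At 142 DPA the median difference was -0.13 for the 22 higher and 0.28 for the 29 lower genes (log2). In Succari, 36.4% of the 22 rose and 31.8% fell, and 44.8% of the 29 rose and 17.2% fell, beside 17.5% higher and 16.9% lower over all genes it could test. Both sets hold a larger share of genes that rose in the normal acid mean, so all genes are not a matched background.

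Cs8g15520 had 42.0, 44.3 and 40.2 CPM in Bingtang at 45 DPA, against 18.6, 19.0 and 14.6 CPM in Newhall and 2.49, 1.01 and 1.92 CPM in Xinhui. At 142 DPA it had 20.8, 19.9 and 23.8 CPM in Bingtang, against 20.5, 18.8 and 19.4 CPM in Newhall and 22.6, 21.6 and 22.3 CPM in Xinhui. The varieties formed 3 separate levels at the earlier stage and Bingtang overlapped both others at the later stage. The stage change was -0.97 in Bingtang, short of 2-fold, 0.155 in Newhall and 3.63 in Xinhui (log2), and the interaction was -2.86 (SE 0.182, edgeR adjusted p = 1.47e-08). It was called against Newhall (-1.13) and Xinhui (-4.60), and Newhall and Xinhui differed too (-3.47, edgeR adjusted p = 1.35e-07).

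Cs2g11620 had 17.9, 13.7 and 11.5 CPM in Bingtang at 45 DPA, against 2.92, 3.33 and 4.95 CPM in Newhall and 1.34, 1.18 and 1.15 CPM in Xinhui. At 142 DPA it was low in every group, at 0.630 to 0.863 CPM in Bingtang, 0.526 to 1.46 CPM in Newhall and 0.189 to 1.93 CPM in Xinhui. The Bingtang level at the earlier stage was 5.81 times the mean of the normal acid libraries without overlap. The interaction was -3.22 (SE 0.584, edgeR adjusted p = 0.000737).

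HPT1 (Cs1g10530), the homolog of homogentisate phytyltransferase, which makes the committed step to vitamin E (tocopherol), was almost unread in young Bingtang fruits. At 45 DPA it had 0, 0.521 and 0.404 CPM in Bingtang, or 5 reads over 3 libraries, against 1.09, 3.13 and 2.20 CPM in Newhall and 1.91, 1.85 and 1.54 CPM in Xinhui. At 142 DPA it had 10.3, 9.28 and 10.95 CPM in Bingtang, against 15.7, 12.1 and 13.0 CPM in Newhall and 6.84, 8.14 and 9.05 CPM in Xinhui. Bingtang lay below all others at the earlier stage and between the normal acid varieties at the later one. The gene rose in all 3 varieties, by 4.90 in Bingtang, 2.67 in Newhall and 2.16 in Xinhui, and the interaction was 2.49 (SE 0.544, edgeR adjusted p = 0.00346). Succari rose by 3.45.

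The unnamed orange1.1t02246 had 1.39, 1.22 and 2.63 CPM in Bingtang at 45 DPA, against 13.3, 19.4 and 17.9 CPM in Newhall and 7.27, 12.6 and 8.84 CPM in Xinhui. At 142 DPA it had 17.9, 10.3 and 9.63 CPM in Bingtang, against 4.02, 2.63 and 13.7 CPM in Newhall and 11.03, 19.7 and 17.9 CPM in Xinhui. Bingtang was below every other library early and overlapped both varieties late. The interaction was 3.13 (SE 0.6, edgeR adjusted p = 0.00118), and Newhall and Xinhui differed by -2.06 (edgeR adjusted p = 0.017).

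**Figure D5:**
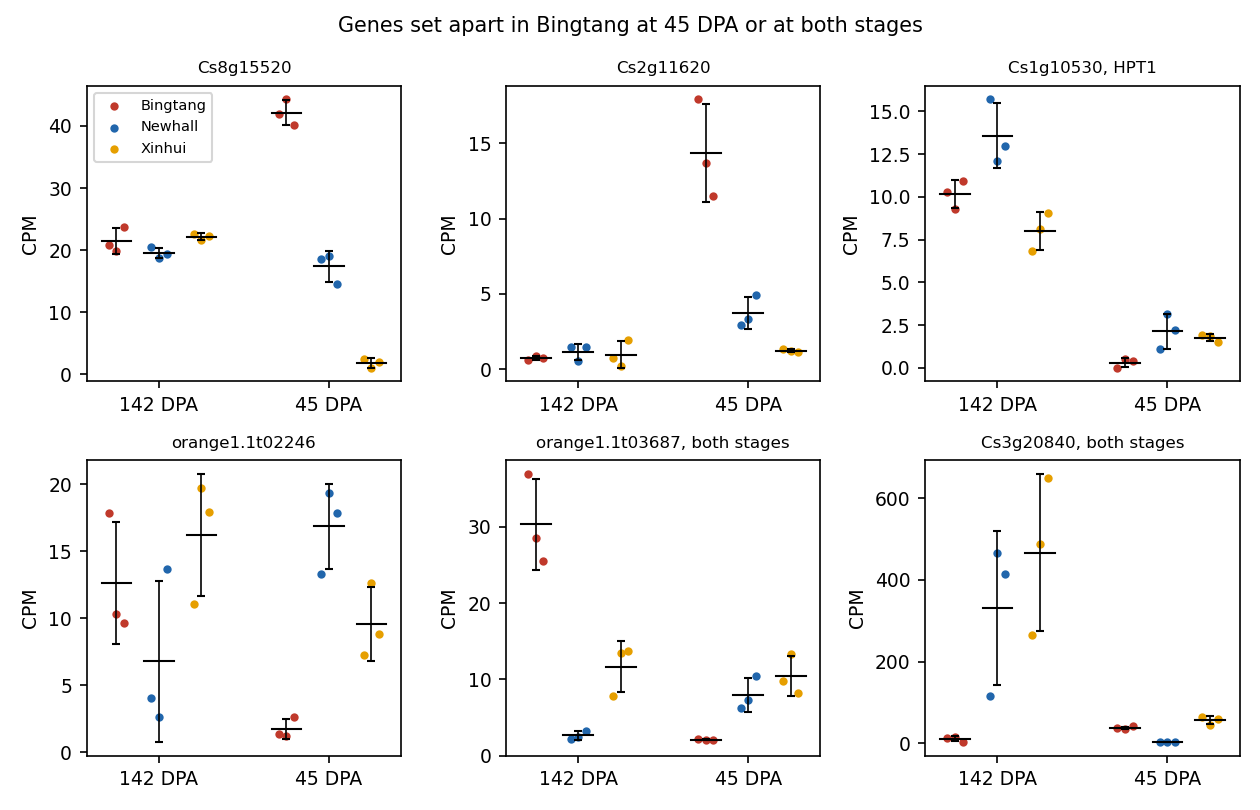
CPM of 4 genes set apart in Bingtang at 45 DPA and 2 genes called at both stages in opposite directions, with 142 DPA on the left and 45 DPA on the right of each panel. Points are the 3 libraries of each variety, lines the mean and bars the SD, and Cs8g15520 averages 42.2 CPM in Bingtang at 45 DPA beside 17.4 CPM in Newhall and 1.81 CPM in Xinhui.

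Of the 21 genes called at both stages in opposite directions, 10 were higher in Bingtang at 142 DPA and lower at 45 DPA, and 11 the other way round. The examples were chosen after their values were seen, as the largest interactions among genes called against both varieties. Cs3g20840 had 12.6, 15.96 and 3.78 CPM in Bingtang at 142 DPA, against 116, 465 and 415 CPM in Newhall and 264, 488 and 649 CPM in Xinhui. At 45 DPA it had 37.4, 34.7 and 40.8 CPM in Bingtang, against 2.19, 3.72 and 3.30 CPM in Newhall and 63.5, 44.7 and 60.1 CPM in Xinhui. Bingtang was below both varieties late. Early it lay above Newhall and below Xinhui, so the called difference from their mean (1.525, edgeR adjusted p = 0.0463) describes neither. Cs3g20840 fell by 1.82 in Bingtang and rose by 6.77 in Newhall, 3.06 in Xinhui and 4.92 in Succari. The interaction was -6.74 (SE 0.61, edgeR adjusted p = 5.29e-07). Newhall and Xinhui themselves differed in stage change by 3.706 (edgeR adjusted p = 0.00159).

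For orange1.1t03687 the pattern ran the other way. It had 37.0, 28.5 and 25.5 CPM in Bingtang at 142 DPA, against 2.19, 2.46 and 3.29 CPM in Newhall and 7.79, 13.5 and 13.7 CPM in Xinhui. At 45 DPA it had 2.19, 2.08 and 2.02 CPM in Bingtang, against 6.20, 7.24 and 10.4 CPM in Newhall and 9.76, 13.3 and 8.26 CPM in Xinhui. Bingtang was above all others late and below all others early. Its stage change was 3.84 in Bingtang, -1.55 in Newhall and 0.15 in Xinhui, and the interaction was 4.54 (SE 0.339, edgeR adjusted p = 8.58e-08).

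Cs7g17670, which rose in Bingtang and fell in the normal acid mean, had the largest interaction of such genes among those called against both varieties and with at least 3 reads in each group. It had 5.04, 3.02 and 2.83 CPM in Bingtang at 142 DPA, against 0.548, 0.175 and 0 CPM in Newhall and 4.18, 3.598 and 2.695 CPM in Xinhui. Its 45 DPA levels were 0.597, 1.04 and 1.82 CPM in Bingtang, against 2.92, 2.94 and 4.12 CPM in Newhall and 3.83, 7.73 and 5.96 CPM in Xinhui. Bingtang overlapped Xinhui late and lay below both varieties early. The interaction was 3.83 (SE 0.574, edgeR adjusted p = 0.000129), and the stage change was called lower in Newhall (-3.64) but not in Xinhui (-0.75, edgeR adjusted p = 0.065). Newhall and Xinhui themselves differed by -2.89 (edgeR adjusted p = 0.0116), and Newhall had only 4 reads over 3 libraries at 142 DPA.

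The genes of the interaction were spread over the gene numbering. By the prefix of the gene ID, 5% to 6.88% of tested genes were called. Among genes with a numbered Cs prefix, 55 of the 482 higher calls (11.4%) stood next in ID order to another higher call, against 4.63% of all tested genes with such a prefix, and 65 of the 539 lower calls (12.1%) next to another lower call, against 5.39%. Adjacent genes can be near-identical copies between which the counting could have split reads, which was not tested.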

How the data were processed

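Per the labels, fruits from field grown trees were harvested and total RNA was made into Illumina libraries. The authors deposited whole-number counts of unique reads for 24166 genes, without normalization, in a table whose title speaks of RPKM; "-" was read as 0. For the aligner, its settings and the build: not given in the sources used here. All columns were matched to samples by label. The labels do not say which trees the replicates came from, so p-values measure only the spread between these samples.

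Counts of 18 libraries were fitted in edgeR 4.0.16 (R 4.3.3) with 6 groups of variety and stage, TMM scaling and no covariate, for genes that reached 0.3 CPM in 3 or more libraries. SE is the log2 fold change divided by the square root of the F statistic. The contrast was Bingtang (142 minus 45 DPA) minus the mean of Newhall and Xinhui, with the same difference at each stage and against each variety. Set apart at a stage means called in the interaction and called at that stage only; a difference that was not called is not shown to be absent. Succari's stage change was fitted on its 6 libraries alone. Alternatives were other scalings and filters, DESeq2 1.42.0, limma 3.58.1 with trend on log2(CPM + 0.1) or voom, all 24 libraries, a replicate block, a robust fit, other thresholds and each library left out; 2 alternatives were added after seeing the data, the stages fitted apart and a fit without Bingtang 142 DPA replicate 2 and Xinhui 142 DPA replicate 3. The scripts were tested on simulated counts.

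Genes described in full are the 6 of the study's qPCR, genes of the study's list of 72 called in the interaction or at a stage, and the 2 highest and 2 lowest genes of each class among those called against both varieties, with at least 3 reads in each group and no overlap at that stage. Genes chosen otherwise are named as such. The seed list holds 8 genes of that list; the sum given leaves out Cs5g24670, which was abundant at both stages. Gene names are those of Arabidopsis homologs in the study's list, since 0 gene IDs matched the reference table. The members and lists were chosen with earlier results of these data known.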

Additional observations from a re-analysis of the deposited data

Results flagged for a closer look

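The stage change differed between Bingtang and the normal acid varieties by a test of the difference itself (edgeR's quasi-likelihood test, n = 3 libraries per group) in 1177 genes, and among the genes described by name or ID the interaction (log2) was past the threshold in the following. The change was higher in Bingtang for orange1.1t00185 (UNE10) at 5.73, orange1.1t03687 at 4.54, Cs7g17670 at 3.83, Cs9g09430 at 3.35, orange1.1t02246 at 3.13, Cs5g20010 at 2.85, Cs6g11700 at 2.71, Cs1g10530 (HPT1) at 2.49, orange1.1t01769 (ABCB21) at 2.25 and Cs6g05010 at 1.25. It was lower in Bingtang for Cs3g20840 at -6.74, Cs4g10600 at -4.83, Cs2g14490 at -4.01, Cs2g11620 at -3.22, Cs8g15520 at -2.86 and Cs6g16160 at -2.43.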

How the results depend on the processing

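The number of genes set apart at 45 DPA depended most on the processing: 51 became 99 with limma-trend, 80 with limma-voom, 79 with the stages fitted apart and 33 at an adjusted p under 0.01, whereas those set apart at 142 DPA stayed between 520 and 789 in these fits. At an adjusted p under 0.01 the calls against both varieties numbered 238, Bingtang minus Newhall 462 and Newhall minus Xinhui 761. With the adjusted p alone, the counts were 3169 for the interaction, 2385 set apart at 142 DPA, 218 at 45 DPA, 1018 against both varieties, 1776 for Bingtang minus Newhall, 4140 for Bingtang minus Xinhui and 2931 for Newhall minus Xinhui. The looser or stricter threshold makes these differences by construction; the cause of the others was not tested.

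Leaving out each library in turn gave 979 to 1279 genes for the interaction, 649 to 853 set apart at 142 DPA, 40 to 59 at 45 DPA, 344 to 491 against both varieties, 676 to 950 for Bingtang minus Newhall, 1729 to 2001 for Bingtang minus Xinhui, 1079 to 1382 for Newhall minus Xinhui and 5 to 8 genes of the study's list. Without both Bingtang 142 DPA replicate 2 and Xinhui 142 DPA replicate 3, 1137 genes were called, of which 892 were among the 1177. With the replicate block 1160 genes were called, 1124 of them shared. The replicate numbers follow the order of the libraries, not the numbers in their labels. Same-numbered deviations correlated at -0.106 to 0.119, and a pairing by the numbers in the labels was not tested. Of the 16 called genes given by name or ID, 15 kept their call in every alternative fit that tested them. UNE10 had an adjusted p in only 27 of 29 fits, with none under the 1 CPM filter or DESeq2. Cs6g05010 lost its call in 13 of 29. Genes of few reads, such as UNE10, are limited by depth.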
